A study of Mus musculus with 2 samples.

Results

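Chromatin accessibility around 10 genes of the rhombic lip and granule neuron lineage was read site by site in hindbrain tissue taken from mice on embryonic day 14.5. The genes were Atoh1, Barhl1, Barhl2, Pax6, Neurod1, Eomes, Reln, Cbln1, Mab21l1 and Cxcr4, and they were chosen by name from the 21911 protein-coding genes of the annotation. The measurement was DNase-seq, in which the nuclease DNase I cuts DNA that is free enough of nucleosomes to be reached and the cut sites are sequenced. There was 1 group, healthy tissue of strain B6NCrl pooled from male and female embryos, with 2 biological replicates and 1 library each. The labels name no treatment, mutation or other tissue, and they give both replicates the same donor entry, so the spread between the libraries may be partly technical. With 2 libraries of 1 group and no read counts, no difference could be tested, and every comparison is a description.

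For each library the authors deposited peaks, 150 bp wide with a score, and hotspots, the wider regions of enriched cutting with a q-value. A promoter site was a peak whose midpoint lay within 1 kb of any start of the gene. A distal site lay more than 1 kb from every annotated start of any gene and within 50 kb of a start of one of the 10. A site was shared when its peak had at least 1 bp in common with a peak from the other library, and its position was then taken from replicate 1. Some peaks of the same library overlap each other, and each was counted as a separate peak. Around the 10 genes there were 313 sites, 45 at promoters and 268 distal. Of these, 98 were shared, 150 were found in replicate 1 alone and 65 in replicate 2 alone. In mm10 coordinates, outermost starts on the plus strand lay at position 64729125 of chromosome 6 for Atoh1, 105668900 of chromosome 2 for Pax6, 118478212 of chromosome 9 for Eomes and 55782510 of chromosome 3 for Mab21l1. Those on the minus strand lay at 28916668 of chromosome 2 for Barhl1, 106458166 of chromosome 5 for Barhl2, 79456751 of chromosome 2 for Neurod1, 22344702 of chromosome 5 for Reln and 128592290 of chromosome 1 for Cxcr4. A further 9 peaks in the windows lay at the start of another gene and are mentioned apart.

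The rhombic lip is the dorsal edge of the hindbrain neuroepithelium next to the roof plate. Its progenitors make the glutamatergic neurons of the cerebellum, among them the granule neurons, the unipolar brush cells and projection neurons of the cerebellar nuclei, and they also supply precerebellar neurons of the brainstem. ATOH1, a basic helix-loop-helix activator, specifies these cells by binding E-boxes and also acts on an enhancer downstream of its own gene. BARHL1 and BARHL2 are homeodomain factors switched on below ATOH1. PAX6 is a paired and homeodomain factor of granule precursors, and NEUROD1 drives their differentiation. EOMES is a T-box factor that marks unipolar brush cells in the cerebellum. RELN is the secreted glycoprotein that positions Purkinje cells, CBLN1 is the synaptic organiser that granule neurons release onto Purkinje cells, and CXCR4 is the receptor for CXCL12 that keeps granule precursors at the surface under the meninges. MAB21L1 is a nuclear protein of the developing eye and brain. Several of these genes are also used in other brain regions and in other cells, Pax6, Eomes, Neurod1 and Reln in the cortex and Cxcr4 in blood and vessels. In bulk tissue a site open in few cells and a site opened weakly in many cannot be told apart.

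The libraries differed in size, and single forebrain genes differed between them in both directions. Replicate 1 held 263679 peaks with a median score of 47, and replicate 2 held 148804 with a median of 30. The meaning of the score and its scaling for depth, if any, were not stated, so a score is also given as its percentile among all peaks of its library. Depth was unknown. Of 7 forebrain marker genes, 3 had a shared promoter peak (Emx1, Emx2 and Tbr1), against 64.6% of all protein-coding genes. Tbr1 is also counted below in a list of genes of neurons from the rhombic lip, so it does not mark forebrain alone. The distal peaks of the 7 summed to 76 in replicate 1 and 75 in replicate 2, whereas those of the 10 genes summed to 213 and 136. Emx2 (10 in replicate 1 and 23 in replicate 2), Emx1 (13 and 17) and Dlx5 (3 and 10) had more in replicate 2, whereas Six3 (13 and 4), Dlx1 (8 and 2), Dlx2 (9 and 5) and Tbr1 (20 and 14) had more in replicate 1. The part of forebrain cells in any result below was not tested. The markers of the cerebellar GABAergic lineage had a shared promoter peak at 5 of 5 genes, those of meninges at 4 of 4, those of erythroid cells, endothelium and liver at 1 of 4 each, and those of microglia at 0 of 4, all beside the same 64.6%. The liver gene was Ttr, which does not mark liver alone. Its shared peak had its midpoint within 1 kb of a start in replicate 1 only.

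The sequences that carry the results are the non-exonic distal shared site with the highest mean score percentile over both libraries, for each of 7 genes, and a promoter window of Atoh1. All are plus-strand sequence of GRCm38.p6, the mm10 assembly, written 5′ to 3′, 150 bases each. Capitals mark an E-box, CAGCTG or the related CAGATG, which reads CATCTG from the opposite strand, in the windows of Atoh1 and Barhl2, and a loose CTCF-type pattern in that of Neurod1. Windows without capitals held none of the patterns searched.
Atoh1 distal site (chr6:64734516-64734665): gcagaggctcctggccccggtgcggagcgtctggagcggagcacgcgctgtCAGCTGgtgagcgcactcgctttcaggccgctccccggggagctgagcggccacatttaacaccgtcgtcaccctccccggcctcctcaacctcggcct
Atoh1 promoter site (chr6:64728636-64728785): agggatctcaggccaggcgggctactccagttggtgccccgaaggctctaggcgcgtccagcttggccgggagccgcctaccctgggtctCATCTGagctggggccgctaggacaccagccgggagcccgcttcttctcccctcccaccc
Barhl1 distal site (chr2:28924036-28924185): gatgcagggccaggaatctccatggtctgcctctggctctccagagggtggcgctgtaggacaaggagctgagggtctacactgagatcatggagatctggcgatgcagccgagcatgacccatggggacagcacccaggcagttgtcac
Barhl2 distal site (chr5:106462016-106462165): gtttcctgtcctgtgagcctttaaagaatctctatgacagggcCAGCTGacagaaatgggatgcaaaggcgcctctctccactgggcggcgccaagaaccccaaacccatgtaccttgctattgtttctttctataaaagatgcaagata
Pax6 distal site (chr2:105682236-105682385): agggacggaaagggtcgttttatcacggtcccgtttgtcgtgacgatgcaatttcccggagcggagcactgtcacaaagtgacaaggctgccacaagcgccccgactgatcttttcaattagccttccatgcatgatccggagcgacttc
Neurod1 distal site (chr2:79499416-79499565): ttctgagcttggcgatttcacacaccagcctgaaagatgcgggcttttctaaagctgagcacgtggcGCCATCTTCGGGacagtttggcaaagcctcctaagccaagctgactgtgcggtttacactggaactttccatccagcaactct
Mab21l1 distal site (chr3:55780316-55780465): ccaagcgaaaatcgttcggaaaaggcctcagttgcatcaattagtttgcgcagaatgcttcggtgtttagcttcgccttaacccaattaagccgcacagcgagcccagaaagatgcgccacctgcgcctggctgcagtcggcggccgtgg
Cxcr4 distal site (chr1:128585976-128586125): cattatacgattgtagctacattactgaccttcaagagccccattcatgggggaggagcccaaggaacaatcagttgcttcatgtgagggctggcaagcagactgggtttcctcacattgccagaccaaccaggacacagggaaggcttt
The midpoint of the distal Atoh1 window lies 5466 bp downstream of the gene's start. The E-box of that window begins at base 52, counted from 1 at the 5′ end, and that of Barhl2 begins at base 44. The E-box of the Atoh1 promoter window begins at base 91 and reads CATCTG on the plus strand.

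Of the 10 genes, 9 had a promoter peak shared by both libraries, against 64.6% of the 21911 protein-coding genes (14152 genes). Barhl2 was the exception. Its promoter peak, 485 bp upstream of the start, scored 82 in replicate 1 and lay in a 209 bp hotspot there, but replicate 2 had neither a peak nor a hotspot within 1 kb. The start of Barhl2 is rich in CpG, in the highest of 10 classes of CpG observed/expected ratio, in which 98.4% of genes had a shared promoter peak. Reln stands in the same class and had one, and Cbln1 stands in the class below, where the share was 98.6%. Atoh1, Barhl1, Eomes and Cxcr4 stand in class 6 (92.2%), Pax6 and Mab21l1 in class 5 (80.0%) and Neurod1 in class 7 (95.7%). The count of 9 in 10 stands beside these class shares, which are higher than the share over all genes.

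Promoter scores were modest for most of the 10 genes. Each gene with a shared promoter peak was placed by its strongest one, using the mean of the score percentiles in both libraries. The median of that mean was 91.1 over the 9 genes and 96.0 over all 14152 genes, and 8 of the 9 genes lay below 96.0. Cbln1 was the exception. Its peak 82 bp upstream of the nearest start scored 142 in replicate 1 and 112 in replicate 2, at percentiles 99.1 and 98.0, and ranked above 80.9% of genes. That window lies in an intron of the noncoding gene Gm2694, which lies on the opposite strand, and touches no annotated exon. A start of Gm2694 lies 394 bp from the Cbln1 peak at 942 bp upstream. The window at 82 bp stands between that start and the Cbln1 start, so its score cannot be assigned to Cbln1 alone.

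Mab21l1, Pax6 and Neurod1 came next. Mab21l1 scored 130 in replicate 1 and 81 in replicate 2 at the site 59 bp upstream of its start, Pax6 127 and 77 at 22 bp upstream of one of its 8 starts, and Neurod1 121 and 81 at 60 bp upstream. Their positions among genes were 38.1%, 34.4% and 35.1% from the bottom. Reln, with 112 in replicate 1 and 70 in replicate 2, and Cxcr4, with 103 and 77, stood at 27.2% and 27.6%. Atoh1 scored 94 in replicate 1 and 45 in replicate 2 at 74 bp upstream (14.5%). Barhl1, with 58 and 39, and Eomes, with 58 and 29, stood lowest, at 6.73% and 4.32%.

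**Figure D1:**
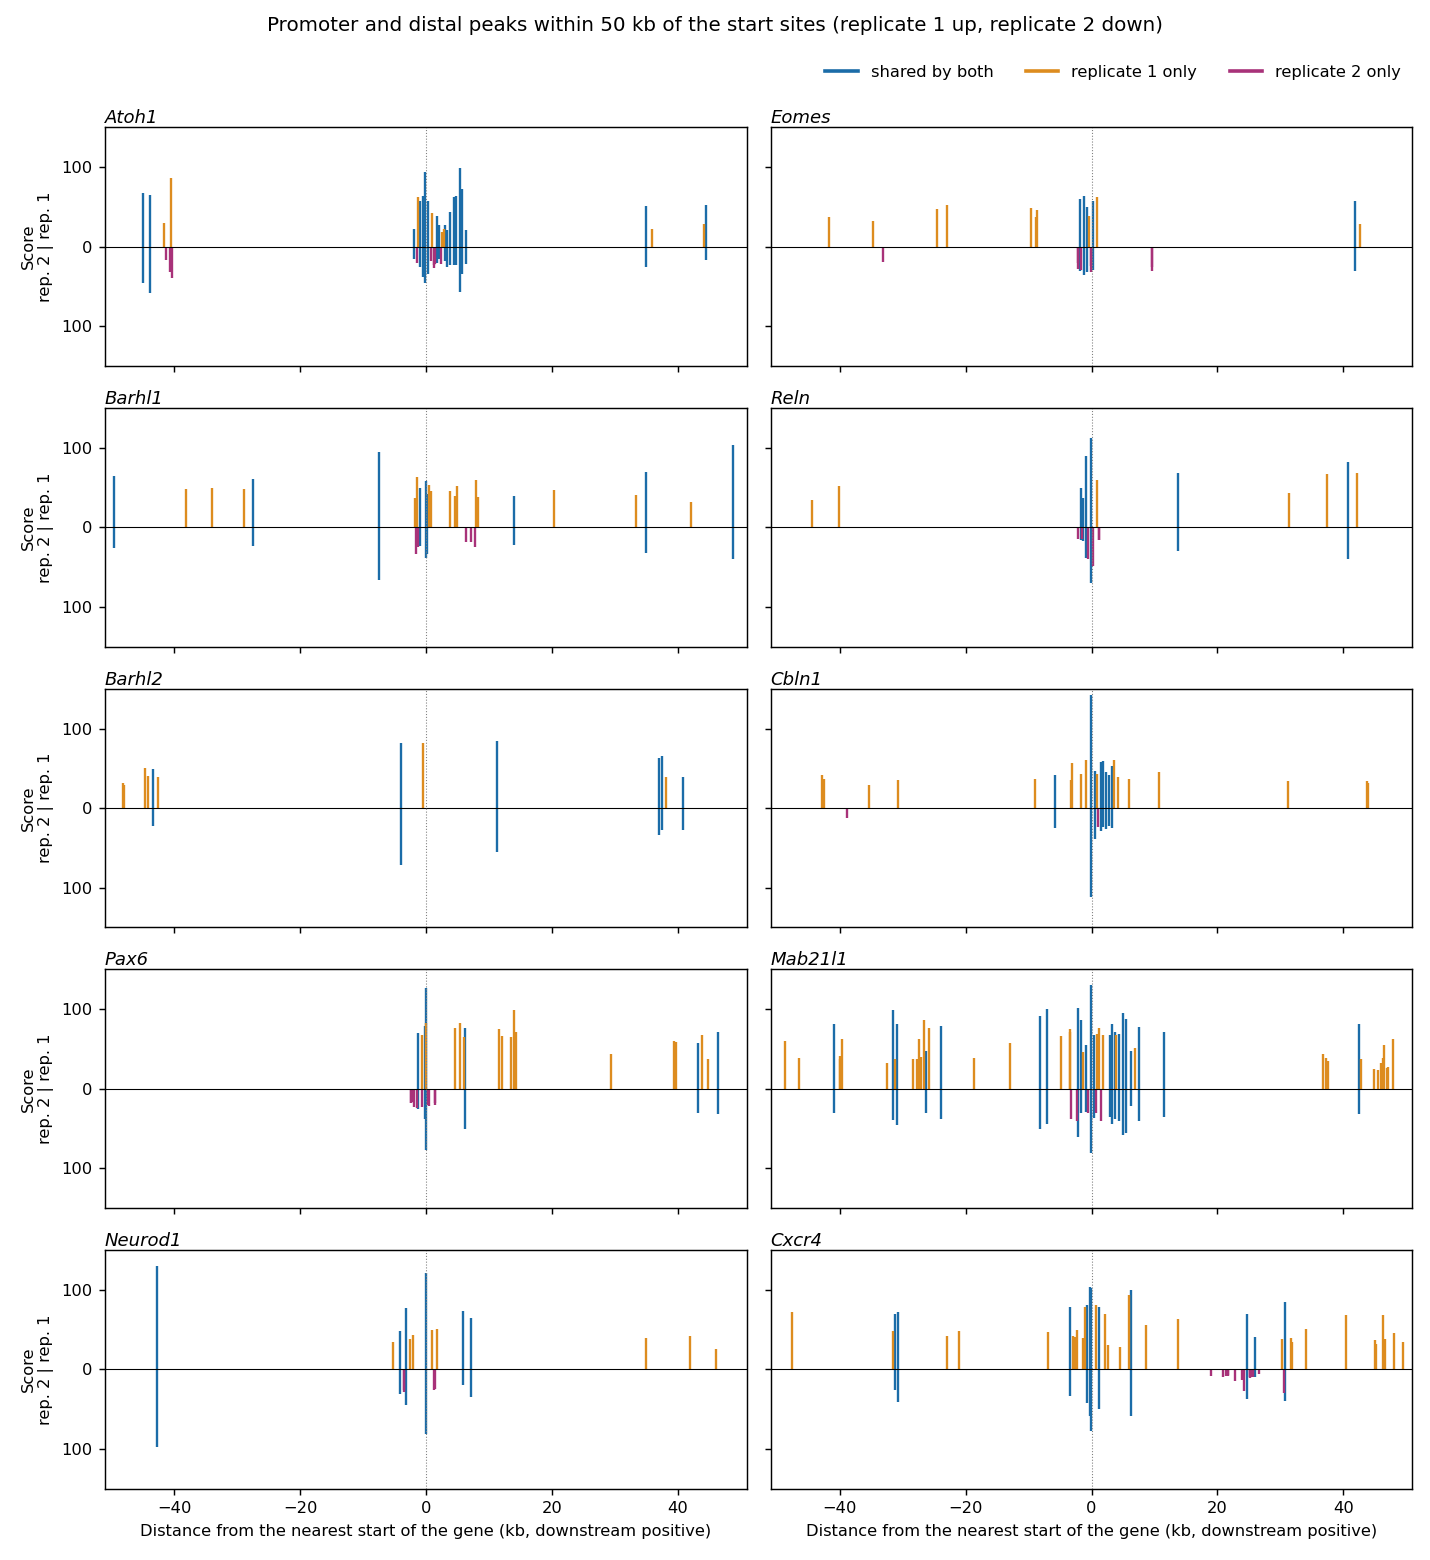
Every promoter and distal site of the 10 genes, by its distance in kb from the nearest start of the gene (downstream positive), with the peak score of replicate 1 drawn upwards and that of replicate 2 downwards. Shared sites are drawn in blue, sites of replicate 1 alone in orange and sites of replicate 2 alone in purple. Mab21l1 holds 54 distal peaks in replicate 1, the dense group right of the Atoh1 start reaches 99, and a row of low purple lines lies 19.0 to 26.7 kb right of the Cxcr4 start.

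The median number of shared distal sites per gene was 6, against 3 over all protein-coding genes, where the quartiles were 1 and 6. In replicate 1 the median was 18 against 8, and in replicate 2 it was 10 against 4. Mab21l1 had 19 shared distal sites, at percentile 99.4 of all genes, and Atoh1 had 15, at percentile 98.4. Cxcr4 had 8 (85.7). Barhl1, Barhl2 and Cbln1 had 6 each (74.4), and Neurod1 had 5 (66.7). Pax6 and Reln had 4 each (57.2), and Eomes, at the median of all genes, had 3 (46.2). Among peaks at or above their library's median score, Mab21l1 had 18, Cxcr4 6, and Atoh1 and Neurod1 4 each. In that setting Barhl1, Barhl2, Pax6 and Eomes had 3 each, Reln 2 and Cbln1 0, against a median of 2 over all genes. Of the 76 shared distal sites, 35 lay in introns, 7 in exons and 34 between genes, and 29 were upstream of the start and 47 downstream. The start of one of the 10 genes was the nearest start of any gene for 63 of them. No shares over all distal shared peaks stand beside these position counts, which describe the 76 sites only. All 19 sites of Mab21l1 are among the 35 in introns.

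**Figure D2:**
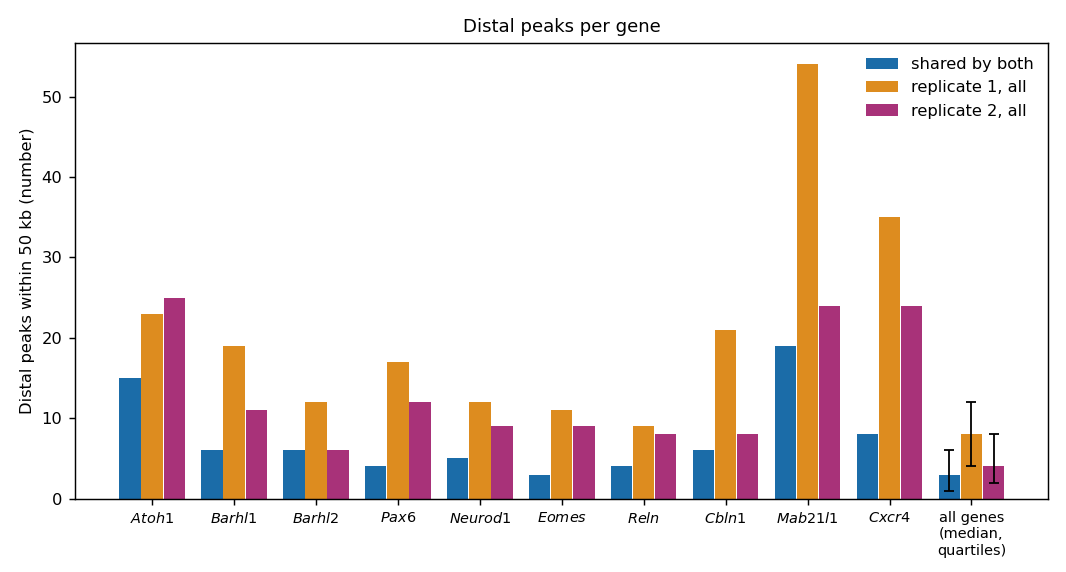
Number of distal peaks within 50 kb of each gene, shared (blue), all of replicate 1 (orange) and all of replicate 2 (purple), and on the right the medians over all protein-coding genes with bars from the lower to the upper quartile. Atoh1, with 23 peaks in replicate 1 and 25 in replicate 2, is the gene of the 10 where replicate 2 holds more. Its replicate 2 peaks at 1286, 1306 and 1386 bp downstream overlap each other and are each counted, so the small excess depends on that counting.

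The sites were many rather than strong. The median score of the shared distal sites was 68 in replicate 1, against 69 over all shared distal peaks near protein-coding genes, and 31 in replicate 2, against 34. Of the 76 sites, 1 stood above percentile 90 of the scores in both libraries, against 5.21% of all such peaks. That site lay 42740 bp upstream of Neurod1 (chr2:79499416-79499565) and scored 130 in replicate 1 and 97 in replicate 2.

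Atoh1 carried a compact group of sites on its downstream side. Between 1 and 7 kb downstream of the start there were 10 shared peaks, with scores from 21 to 99 (median 41.5) in replicate 1 and from 16 to 57 (median 23) in replicate 2. The strongest, 5466 bp downstream (chr6:64734516-64734665), scored 99 in replicate 1 and 57 in replicate 2, at percentiles 90.5 and 81.4, and lay in a hotspot of 1439 bp in replicate 1 and 983 bp in replicate 2. It is the window with the CAGCTG E-box at base 52. Whether it falls within the published autoregulatory enhancer was not checked. A site 5786 bp downstream in the same hotspots scored 73 in replicate 1 and 34 in replicate 2. E-boxes also stood in the weaker sites 3106 bp downstream, which scored 27 in replicate 1 and 18 in replicate 2 (CAGCTG), and 3866 bp downstream, which scored 44 and 23 (CAGATG).

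The same stretch held 3 peaks of replicate 1 alone and 4 of replicate 2 alone, and all 4 from replicate 2 lay in a replicate 1 hotspot. At the far upstream end, 2 sites were close in strength in both libraries. The site 44954 bp upstream scored 68 in replicate 1 and 45 in replicate 2, at percentiles 73.6 and 72.8, and the site 43914 bp upstream, which held CAGATG, scored 65 and 58, at percentiles 71.1 and 82.0. Closer to the gene, peaks of the libraries lay beside each other without overlap. A replicate 1 peak scored 87 at 40494 bp upstream, and replicate 2 peaks scored 32 and 39 at 40734 and 40314 bp, all inside a hotspot of 849 bp in replicate 1 and 611 bp in replicate 2. Besides the E-box window at 414 bp, which scored 64 in replicate 1 and 38 in replicate 2, the Atoh1 promoter had a site 914 bp upstream scoring 57 and 25. That site held TAAACG, a pattern of BARHL factors. Atoh1 was also the gene of the 2 shared sites, out of 98, that scored higher in replicate 2, at 3326 bp downstream (21 in replicate 1 and 25 in replicate 2) and at 6306 bp downstream (21 and 22).

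For Barhl1 the site 7443 bp upstream scored 95 in replicate 1 and 66 in replicate 2, at percentiles 89.0 and 86.0, above the 58 and 39 of its best promoter site. The remaining 5 shared distal sites of Barhl1 lay in introns of its neighbours. In Ddx31, downstream of Barhl1, they scored 103 in replicate 1 and 40 in replicate 2 (48781 bp), 70 and 32 (34961 bp), and 40 and 22 (14021 bp). In Cfap77, upstream of it, they scored 61 in replicate 1 and 23 in replicate 2 (27403 bp) and 64 and 26 (49623 bp). At percentile 91.8 in replicate 1 and 67.5 in replicate 2, the farthest Ddx31 site differed more between libraries than the site at 7443 bp.

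For Barhl2, whose promoter was not shared, all 6 distal peaks of replicate 2 were also in replicate 1. The site 3925 bp upstream (chr5:106462016-106462165), with CAGCTG, scored 82 in replicate 1 and 71 in replicate 2, at percentiles 82.9 and 88.1. The site 11375 bp downstream scored 84 in replicate 1 and 55 in replicate 2. A group 37075 to 40835 bp downstream scored 63 in replicate 1 and 34 in replicate 2, then 65 and 28, then 39 and 28. Barhl2 thus had distal sites in both libraries while its promoter peak was called in 1 of them.

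Around Pax6 each library had a group of peaks of its own. The intronic site 6182 bp downstream of a start (chr2:105682236-105682385) scored 77 in replicate 1 and 50 in replicate 2. Between 4.56 and 14.3 kb downstream, replicate 1 had a further 8 intronic peaks that replicate 2 lacked, with scores from 65 to 99 (median 73), and none of them lay in a replicate 2 hotspot. Conversely, replicate 2 had 6 peaks 1.45 to 2.37 kb upstream, in an intron of the antisense gene Pax6os1, with scores from 13 to 24, and none of them lay in a replicate 1 hotspot. The peaks at 2369 and 2329 bp overlapped each other, as did those at 1989 and 1889 bp. Introns of Elp4, the neighbour known for holding long-range Pax6 enhancers, had 2 shared sites. The site 43322 bp downstream scored 58 in replicate 1 and 31 in replicate 2, and the site 46462 bp downstream, which held CAGATG and the SOX-type letters ACAATGG, scored 71 and 32. The counts of single forebrain markers given above differ between the libraries too, in both directions. Their part in the Pax6 differences was not tested.

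Neurod1 had its strongest distal site at 42740 bp upstream, described above, in a hotspot of 460 bp in replicate 1 and 406 bp in replicate 2. Closer by, sites 3100 and 4080 bp upstream, in exons of the noncoding gene Gm26755, scored 77 in replicate 1 and 45 in replicate 2 and 49 and 31. The nearer of them held TAATTA, the core of homeodomain sites. Downstream, the site at 7200 bp scored 65 in replicate 1 and 35 in replicate 2. The site at 5920 bp, with CAGATG, scored 74 and 20, at percentiles 78.1 and 22.0. A hotspot of 1655 bp in replicate 1 and 1215 bp in replicate 2 lay within Neurod1 next to a start of Gm26755, with peaks scoring 93 in replicate 1 and 58 in replicate 2 and 70 and 38 that are not counted as distal.

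Around Eomes, replicate 1 called 11 distal peaks and replicate 2 called 9. Both shared sites just upstream held E-boxes. The site at 1201 bp (CAGATG) scored 64 in replicate 1 and 36 in replicate 2, and that at 1881 bp (CAGCTG) scored 60 and 31. The third shared distal site, with CAGCTG, lay 41827 bp downstream in an intron of Golga4 and scored 58 in replicate 1 and 30 in replicate 2. Between 8.68 and 41.7 kb upstream, replicate 1 had 7 peaks scoring 32 to 53, which replicate 2 lacked. The higher scores in this window belonged to starts of other genes, Golga4 (139 in replicate 1 and 98 in replicate 2) and the noncoding Gm33460 (94 and 80).

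Among the effector genes, Reln had 2 of its 4 shared distal sites inside the gene and the others just upstream. The intronic site 40799 bp downstream (chr5:22303816-22303965) scored 82 in replicate 1 and 40 in replicate 2, and that at 13719 bp scored 68 and 30. Weaker sites lay 1409 bp upstream (37 in replicate 1 and 17 in replicate 2) and 1729 bp upstream (49 and 16). A hotspot of 2208 bp in replicate 1 and 1652 bp in replicate 2 spanned the Reln promoter. Cbln1 paired the strongest promoter of the group with weak distal sites. From 1455 to 3275 bp downstream, within the gene, 5 shared sites scored between 41 and 59 in replicate 1 and between 22 and 29 in replicate 2, and the sixth, 5842 bp upstream, scored 42 and 25. The site 3275 bp downstream held TTCACGC, a PAX6 paired-domain core, and scored 53 in replicate 1 and 25 in replicate 2. The longest Cbln1 promoter hotspot was 2409 bp in replicate 1 and 832 bp in replicate 2, which had a further one of 197 bp.

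Mab21l1, a single-exon gene that lies inside an intron of Nbea, had the most shared distal sites of the 10. All 19 of its shared distal sites lay in Nbea introns. The strongest was 2119 bp upstream (chr3:55780316-55780465) and scored 102 in replicate 1 and 60 in replicate 2. From 2.92 to 11.6 kb downstream there were 9 shared sites, scoring 48 to 95 (median 71) in replicate 1 and 22 to 58 (median 40) in replicate 2. Of these, the sites 5061 and 5481 bp downstream scored highest in replicate 2, at 58 and 56, and 95 and 88 in replicate 1. From 7.06 to 40.9 kb upstream there were 7 shared sites, scoring 47 to 100 in replicate 1 and 30 to 50 in replicate 2. The site 7059 bp upstream (CAGATG) scored 100 in replicate 1 and 44 in replicate 2, and that 8139 bp upstream (CAGCTG) scored 91 and 50. From 3.38 to 48.7 kb upstream there were also 18 peaks of replicate 1 alone, and replicate 2 had 1 of its own 3219 bp upstream. A further 12 peaks of replicate 1 alone, scoring 24 to 63, stood 36.8 to 47.9 kb downstream, and none of them lay in a replicate 2 hotspot. The promoter site 59 bp upstream held both CAGATG and TAATTA.

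Cxcr4 had 3 shared promoter sites. They lay 21, 321 and 781 bp upstream and scored 103 in replicate 1 and 77 in replicate 2, 104 and 59, and 81 and 42. The strongest distal site, 6239 bp downstream (chr1:128585976-128586125), scored 100 in replicate 1 and 59 in replicate 2. Others scored 85 in replicate 1 and 40 in replicate 2 (30779 bp downstream, with CAGATG), 79 and 50 (1139 bp downstream, intronic), 79 and 33 (3421 bp upstream) and 72 and 41 (30741 bp upstream). In replicate 2 a run of 14 peaks that replicate 1 lacked spread from 19.0 to 26.7 kb downstream, between annotated genes. Their scores were low, 6 to 27 with a median of 10, at percentiles 1.72 to 43.4, and 1 of them lay in a replicate 1 hotspot. Some of the 14 peaks overlapped each other, those at 25219, 25179 and 25139 bp and those at 21739 and 21719 bp. Bases masked as repeats made up between 0% and 82.7% of the 14 windows. The same stretch held 2 shared sites, 24639 bp downstream (70 in replicate 1 and 37 in replicate 2) and 25999 bp downstream (41 and 10), and no peak of replicate 1 alone. Replicate 1 in turn had 8 peaks of its own from 34.1 to 49.5 kb downstream, scoring 32 to 69.

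A smaller share of the distal peaks near the 10 genes was found in both libraries than near genes at large. Over peaks of any score the margin was wider in replicate 2. In replicate 1, 76 of 213 were shared (35.7%, 95% Wilson interval 29.6% to 42.3%), against 43.0% of the distal peaks near any protein-coding gene. In replicate 2, 81 of 136 were shared (59.6%, interval 51.2% to 67.4%), against 76.9%. Within 20 kb the replicate 1 share lay above that at large instead, at 46.2% against 44.7%. Among peaks at or above their library's median score, the wider margin was in replicate 1, with 38.3% against 50.1%. The replicate 2 share among such peaks was 85.7% against 92.8%. The intervals cover counting error only and treat neighbouring peaks as independent, which runs such as that of Cxcr4 are not. By gene, the replicate 2 share ran from 33.3% (Pax6 and Eomes) and 37.5% (Cxcr4) to 87.5% (Mab21l1) and 100% (Barhl2). The replicate 1 share ran from 22.9% (Cxcr4) and 23.5% (Pax6) to 65.2% (Atoh1). Without Cxcr4 the replicate 2 share was 64.3%, without Atoh1 57.7% and without Mab21l1 53.6%. Among peaks with a score of at least 15 it was 66.9%, against 83.7% near any protein-coding gene.

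**Figure D3:**
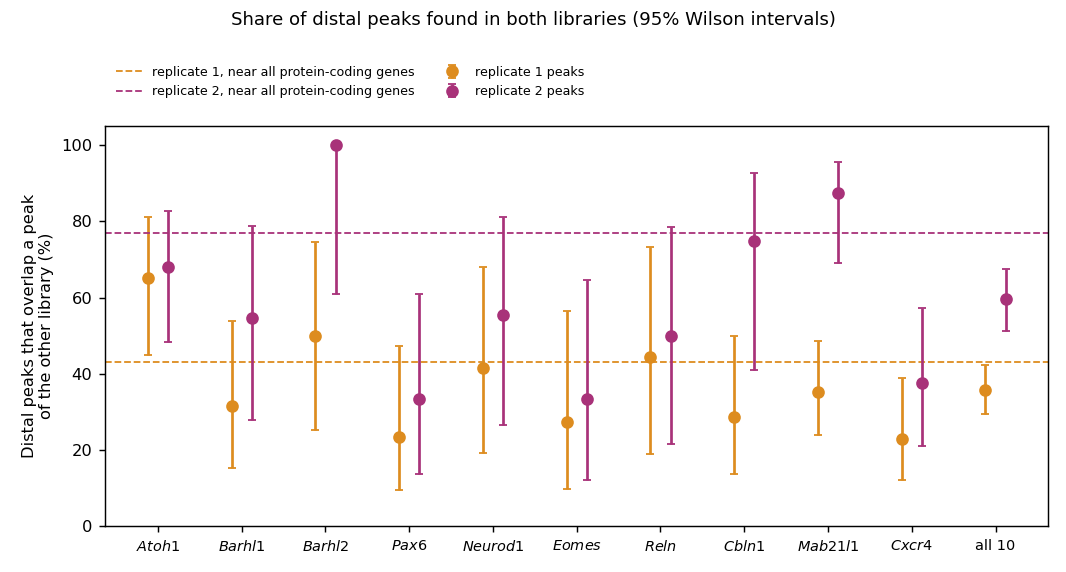
Percentage of each gene's distal peaks that were shared, for replicate 1 (orange) and replicate 2 (purple), with 95% Wilson intervals, and dashed lines for the distal peaks near all protein-coding genes (43.0% and 76.9%). For the 10 genes together the points lie at 35.7% and 59.6%, and single genes have wide intervals.

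Private peaks were weaker than shared ones. The 137 distal peaks of replicate 1 alone had a median score of 43 and a maximum of 99, and 11 of them lay in a replicate 2 hotspot. The 55 of replicate 2 alone had a median of 21 and a maximum of 40, and 24 of them lay in a replicate 1 hotspot. No share over all private distal peaks stands beside these hotspot counts. Replicate 1 also held more hotspots in all, 231347 against 133205. Near all protein-coding genes the median scores of private distal peaks were 38 in replicate 1 and 17 in replicate 2.

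**Figure D4:**
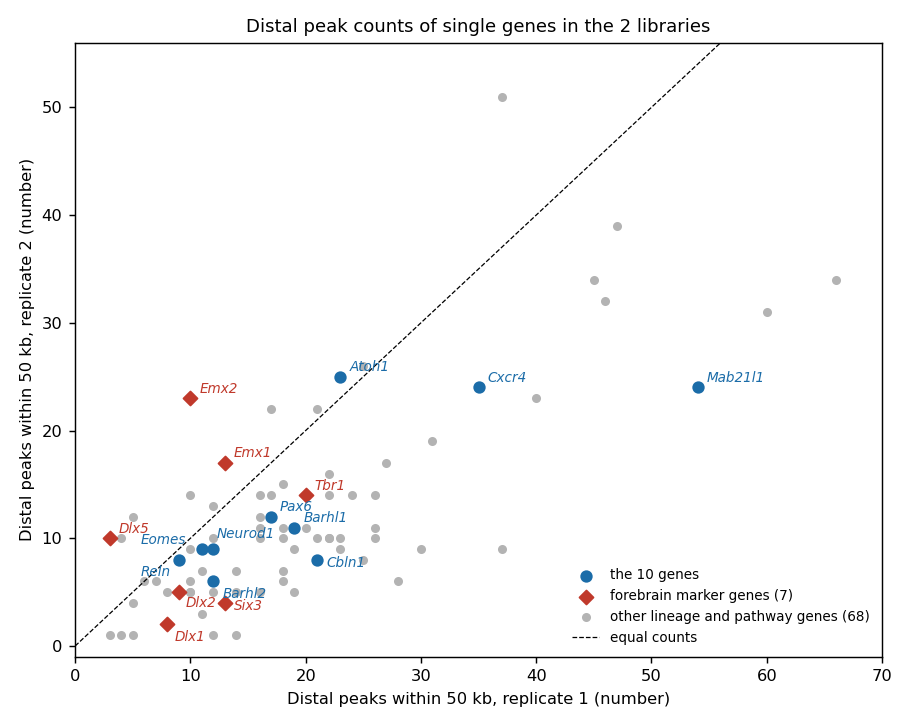
Distal peaks within 50 kb of single genes in replicate 1 (x axis) and replicate 2 (y axis). Blue circles are the 10 genes, red diamonds 7 forebrain marker genes and grey dots 68 further lineage and pathway genes, and the dashed line marks equal counts. Emx2 lies above the line at 10 and 23, Atoh1 just above it at 23 and 25, and Mab21l1 far below it at 54 and 24.

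Over the 98 shared sites of the 10 genes, the scores of both libraries had a Spearman coefficient of 0.832 and a Pearson coefficient of 0.853, against 0.857 and 0.879 over all 111722 shared peaks. Sites share their libraries and are not replicates, so these values are descriptions. Replicate 1 scored higher at 96 of the 98 sites, against 99.3% of all shared peaks. In percentiles, 36 of the 98 sites differed by at most 10 points, against 43.9% of all shared peaks, and 18 differed by more than 25 points, against 22.0%. The median of the replicate 2 percentile minus the replicate 1 percentile was −10.8. Overlapping peaks were offset by a median of 20 bp, the same as over all shared peaks.

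**Figure D5:**
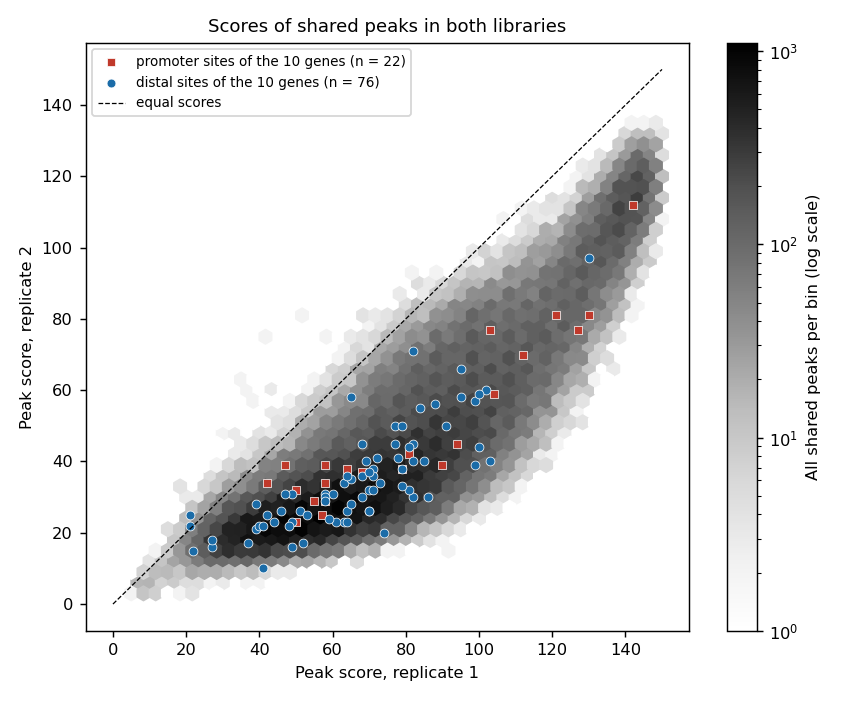
Peak scores of shared sites in replicate 1 (x axis) and replicate 2 (y axis), with 22 promoter sites (red squares) and 76 distal sites (blue circles) of the 10 genes over all shared peaks (grey bins, log colour scale), and a dashed line of equal scores. The Cbln1 promoter lies at the top right at 142 and 112, and 2 Atoh1 sites lie just above the line at low scores.

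Hotspots gave a similar picture for promoters. A shared hotspot within 1 kb of a start was found for 9 of the 10 genes, against 65.4% of protein-coding genes. Near the 10 genes, 88 of 215 replicate 1 hotspots were shared (40.9%, interval 34.6% to 47.6%), against 41.6% of all, and 119 of 150 replicate 2 hotspots (79.3%, interval 72.2% to 85.0%), against 84.8%. Fewer replicate 2 hotspots than at large reached the highest significance in the files, a −log10 q-value of 100, with 19 of 150 (12.7%) against 30.2%. In replicate 1 it was 62 of 215 (28.8%) against 35.2%. For both measures the hotspots at large are all those of the library, wherever they lie. Those of the 10 genes lie within 50 kb of a start, so the sets are unlike. The longest hotspot of replicate 1 spanned 2907 bp over the Cxcr4 promoter, where replicate 2 had separate hotspots of 347, 280 and 117 bp. At the Mab21l1 promoter replicate 1 had a hotspot of 2749 bp, and replicate 2 had 4 shorter ones of 528, 609, 74 and 268 bp. At the Atoh1 promoter the longest were 2009 bp in replicate 1 and 1471 bp in replicate 2. In replicate 2 the longest Mab21l1 hotspot, 1617 bp, covered the stretch 4267 to 5883 bp downstream, and the longest Cxcr4 hotspot, 1603 bp, lay inside the run of low-scoring peaks.

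Short sequence patterns were counted in the 76 shared distal sites and in the 81031 distal shared peaks of the whole genome. Each was searched on both strands of the 150 bp windows and counted by itself, so a window can count for several. CAGCTG stood in 11 sites (14.5%, against 16.6%) and CAGATG in 12 (15.8%, against 17.7%). TAATTA stood in 4 (5.26%, against 6.85%), ACAATGG in 2 (2.63%, against 2.48%) and TTCACGC in 1 (1.32%, against 0.700%). A loose CTCF-type pattern stood in 4 (5.26%, against 15.4%), including the Neurod1 site 42740 bp upstream. TAAACG (1.56% genome-wide), the T-box letters AGGTGTGA (0.420%), the GLI letters TGGGTGGTC (0.106%), and the NFI (0.255%) and RFX (0.716%) patterns stood in none. Both E-boxes were thus about as frequent in the sites as at large. A pattern in a window is not evidence of binding, and its absence says only that the letters are not there. The median GC content was 51% in the sites and 50% in all distal shared peaks.

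Genes that work with the 10 in the same lineage were counted in lists drawn up by their known roles. They are to be read against 64.6% of all protein-coding genes with a shared promoter peak and a median of 3 shared distal sites. CpG classes are not given for these lists or for the marker genes above. In the classes of the 10 genes the share ran from 80.0% to 98.6%, so high list counts need not be particular to the lineage. Of 12 rhombic lip progenitor and roof plate genes, 10 had a shared promoter peak, and their median of shared distal sites was 8.50. Zic2, a zinc finger factor of granule precursors, had 25 shared distal sites, and Zic1 and Zic4 had 21 each. Sites were counted gene by gene, so a site in the windows of neighbouring genes counts for each of them. The windows around all starts of a gene were joined, so a gene with widely spread starts covers more sequence. The roof plate signals Gdf7 and Wnt1 were the genes without a shared promoter peak, as replicate 2 had none at either. Of 12 granule precursor proliferation genes, which include the sonic hedgehog pathway, 12 had one, with a median of 6.50 distal sites. Hes1, a Notch target, had 14. Of 16 differentiation and migration genes, 15 had one, with a median of 8.50 and the highest count, 19, at the Rac activator Tiam1, followed by 18 at Neurod2. Nhlh1 lacked one.

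Of 10 genes of the mature granule neuron, 7 had a shared promoter peak, near the 64.6% of all protein-coding genes, and Gabra6, Slc17a7 and Fat2 had no promoter peak in either library. Their median was 4.50 shared distal sites, against 3 over all genes. All 10 genes of cerebellar nuclear and brainstem neurons from the rhombic lip had a shared promoter peak. Their median was 7 distal sites, with the highest count, 34, at Rbfox3, which is not particular to these neurons. Tbr1, in this list, is also among the forebrain markers above. Among the partners of RELN, CBLN1 and CXCR4, all 10 had a shared promoter peak, with a median of 6.50. The kinase gene Fyn, which acts below the reelin receptors, had 27 shared distal sites, and Cxcl12, the ligand of CXCR4, had 3.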

How the data were processed

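DNase-seq libraries of 2 biological replicates of 1 tissue were compared. The authors made peaks and hotspots replicate by replicate from filtered mm10 alignments, per the labels and the accompanying text. The aligner and caller were not given in the sources used here. A deposited peak score is a whole number up to 150 with no stated unit or depth scaling. In the deposited hotspots the −log10 q-value is 1.30 to 6, or 100, read as a cap. The files hold no read counts, so depth is unknown and no count model or test was possible.

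Starts came from the basic set of GENCODE M21 and sequence from RefSeq GRCm38.p6, and no peak ended beyond a chromosome. Peaks outside the assembled chromosomes, 253 in replicate 1 and 303 in replicate 2, were left out. Score percentiles are mid-ranks within a library. CpG observed/expected ratios were taken within 500 bp of the outermost start. Shares have 95% Wilson intervals. The overlap code was checked on simulated data. Python 3.11.15 with pandas 2.3.3, numpy 2.4.6, scipy 1.17.1 and matplotlib 3.10.9 was used. Alternatives changed the overlap, the score minimum, the windows, the start, the placement of a peak, and peaks for hotspots.

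The 10 genes and all lists and patterns were chosen with earlier results of these data known. Of each list, the text names at most the top 3 and bottom 2 genes by shared distal sites, plus, chosen after their values were seen, genes without a shared promoter peak and Cxcl12. Runs of peaks, the leave-one-gene-out shares and the score minimum of 15 were also chosen after the data were seen. A marker gene and a promoter sequence are not reported here.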

Additional observations from a re-analysis of the deposited data

How the results depend on the processing

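The number of genes with a shared promoter peak was 9 under every alternative run except replicate 1 alone, where it was 10. The replicate 2 share of 59.6% was 49.3% when 50% of both peaks had to overlap (all genes 69.5%), 85.7% among peaks at or above their library's median score (92.8%), 68.0% within 100 kb (77.3%) and 78.3% with hotspots. The replicate 1 share of 35.7% was 38.3% among peaks at or above their library's median score (all genes 50.1%). It was 46.2% within 20 kb (all genes 44.7%) and 46.0% when the gene's start had to be the nearest. The 76 shared distal sites became 46 at or above the median score, 48 within 20 kb, 130 within 100 kb, and 136 to 213 in a single library. The median of 6 became 3 at or above the median score (all genes 2), 3 within 20 kb (all genes 1), 11.5 within 100 kb (all genes 7), and 10 to 18 in a single library. Causes were not tested. A count was taken as moved past 1.5 times its reported value and a share outside its interval, and by that measure 40 of 56 values and 59 of 80 counts for single genes did not move. No paired analysis was possible because the series has 1 group. The limits are 2 libraries of unknown depth, a score of unstated meaning and neighbouring peaks that miss each other inside a common hotspot.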
